A study of Homo sapiens with 6 samples.

Results

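The suppressors of cytokine signalling (SOCS) family and the antisense RNA of SOCS2 were examined in HCT-8 cells. The genes looked for were SOCS1 to SOCS7, CISH and SOCS2-AS1, and all 9 had a feature among the 14884 genes named on the array. The family was singled out because SOCS2 and SOCS2-AS1 had among the largest falls in this same comparison, so their differences are described here without a test. The other 7 genes were taken by family name. HCT-8 is a human colon cancer line grown in DMEM. Populations carrying a plasmid for TRIB3-shRNA (3 arrays) or Control-shRNA (3 arrays) were put under hygromycin 24 hours after transfection, kept under it for 14 days, passaged in it and used uncloned. Both groups thus share the steps of transfection and selection, but they are different transfected populations. An effect of the shRNA and a difference between the populations cannot be told apart. The labels do not settle whether replicates were separate cultures or hairpins. The p-values here thus measure the spread between these 6 samples only, and that spread may be technical.

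SOCS proteins are feedback inhibitors of cytokine signalling. A cytokine or hormone receptor activates JAK kinases, these phosphorylate STAT transcription factors, and STATs switch on SOCS genes. Each SOCS protein has an SH2 domain that binds phosphorylated tyrosines and a SOCS box that recruits elongins and the cullin CUL5, so that the bound protein is marked with ubiquitin. SOCS2 is best known for restraining growth hormone signalling, and in the intestine it limits growth driven by that hormone.

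Signals are given as log2 RMA values, and differences give the arrays labelled TRIB3-shRNA minus those labelled Control-shRNA. Array medians over all genes ran from 5.62 to 5.67 under the TRIB3-shRNA label and from 5.69 to 5.70 in controls. The 25th percentiles ran from 4.32 to 4.36 under the TRIB3-shRNA label and from 4.26 to 4.29 in controls. The number of arrays limits the precision. TRIB3, the targeted gene, went against the labels: it read 8.27 to 8.48 under the TRIB3-shRNA label and 7.14 to 7.48 in controls, so every direction below rests on the labels alone. The 12 measured markers of colon epithelium read from 5.75 (CLDN4) to 11.35 (KRT18), with EPCAM at 10.73 to 11.05, KRT8 at 7.18 to 7.57 and CDX1 at 6.72 to 7.73 over the 6 arrays. Their mean was 8.48 to 8.57 under the TRIB3-shRNA label and 8.19 to 8.49 in controls. CDX1, an intestinal transcription factor, rose by 0.69 (limma adjusted p = 0.0372), and 5 of the 12 had an unadjusted p under 0.05, against 28.8% of all genes. The markers did not all go one way: without overlap of the groups, 5 were higher and 2 lower. Those lower were VIL1 (-0.44, limma adjusted p = 0.0631) and CLDN7 (-0.32, limma adjusted p = 0.18). Of all genes, 16.4% were higher and 15.6% lower without overlap. The part of these markers in the results below was not tested. Among markers of other cell types, 0 of 8 immune, 0 of 3 fibroblast and 0 of 6 endothelial genes passed limma's test, and 0 of these had an unadjusted p under 0.05. The immune list averaged 5.18 to 5.29 under the TRIB3-shRNA label and 5.15 to 5.18 in the controls. Of those measured no marker is listed at 0, PTPRC, CD3E, COL1A1 and CDH5 were not analysed here, and the 17 measured ran from DCN at 1.82 to 2.40 to CD68, a macrophage marker, at 7.74 to 8.18, above the 75th percentile of every array (7.05 to 7.24). CLDN5 at 5.86 to 6.07 also lay above every array's median.

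SOCS2 was about 4-fold lower in the arrays labelled TRIB3-shRNA, and its antisense RNA was lower by nearly the same amount. SOCS2 read 5.85, 5.89 and 5.67 under the TRIB3-shRNA label and 7.84, 7.55 and 7.85 in controls. All the former lay below all the latter, with a gap of 1.66 between the nearest arrays, while arrays of a group spanned at most 0.30. The group means were 5.80 ± 0.12 and 7.75 ± 0.17 (SD, n = 3 each), a difference of -1.94 on the log2 scale (SE 0.14, 3.85-fold). By size of fall SOCS2 ranked 9 of all 14884 genes.

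SOCS2-AS1 is a long non-coding RNA whose span overlaps that of SOCS2 in the RefSeq gene table. It read 5.47, 5.74 and 5.15 under the TRIB3-shRNA label and 7.36, 7.43 and 7.34 in controls. The groups again lay apart, by 1.60, and the control arrays were the tighter, with a range of 0.09 against 0.59. The means were 5.45 ± 0.30 and 7.38 ± 0.05 (SD, n = 3 each), a difference of -1.92 (SE 0.16, 3.79-fold), which ranked 10. Each gene had its own feature, and whether the probes of either feature lie in the overlap or read both strands was not tested. In bulk samples fewer cells carrying an RNA and less RNA per cell cannot be told apart.

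**Figure D1:**
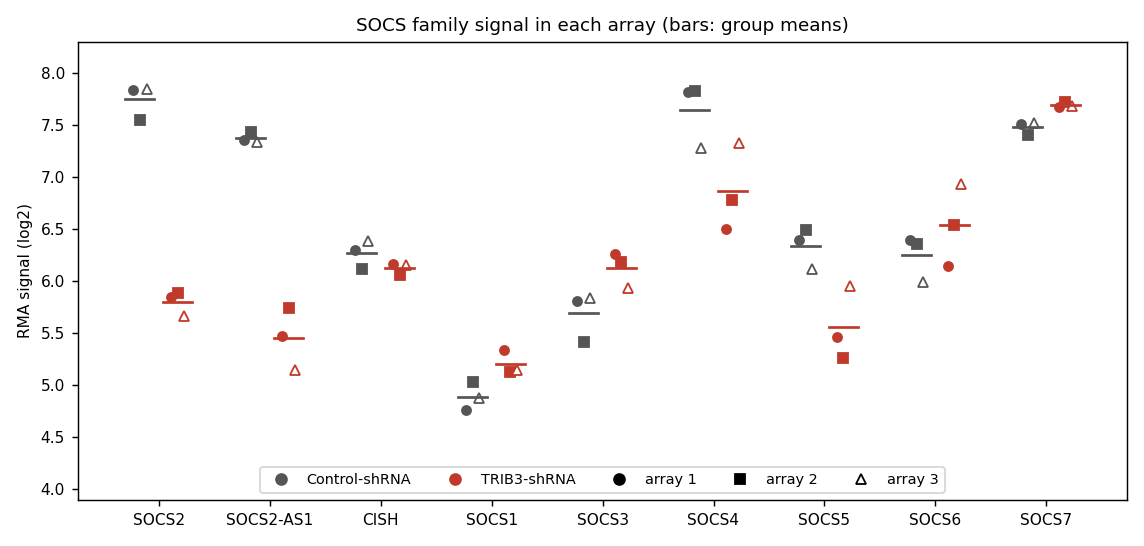
RMA signal (log2, vertical axis) of the 9 genes in each of the 6 arrays, with group means as bars; circles, squares and open triangles are arrays 1, 2 and 3 of a group. SOCS2 and SOCS2-AS1 lie between 5.15 and 5.89 under the TRIB3-shRNA label and between 7.34 and 7.85 in controls, while the groups lie close together for CISH.

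The genes most like SOCS2 were ranked by the root mean square difference of log2 signal over the 6 arrays, after each gene's own mean was subtracted. SOCS2-AS1 ranked 2 of 14883 genes, with a difference of 0.165, where the median over all genes was 1.01. Only SH3BGRL, which encodes a small SH3-binding-like protein, was closer, at 0.129. It was followed, outside the family, by the long non-coding RNA HCP5 (0.222), the serine protease gene KLK7 (0.233), the glutathione transferase gene MGST1 (0.235) and the tetraspanin gene TSPAN33 (0.241). All 5 were lower in the arrays labelled TRIB3-shRNA, at -2.04 for SH3BGRL and from -1.69 to -1.49 for the others. The lower means of SH3BGRL (3.69) and MGST1 (3.66) lay below the 25th percentile of every array (4.26 to 4.36). This ranking mostly reads the group difference, since the arrays of a group differed far less than the groups did. SOCS2 and SOCS2-AS1 were both chosen for their fall in these arrays, so a high place for SOCS2-AS1 was largely set in advance.

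**Figure D2:**
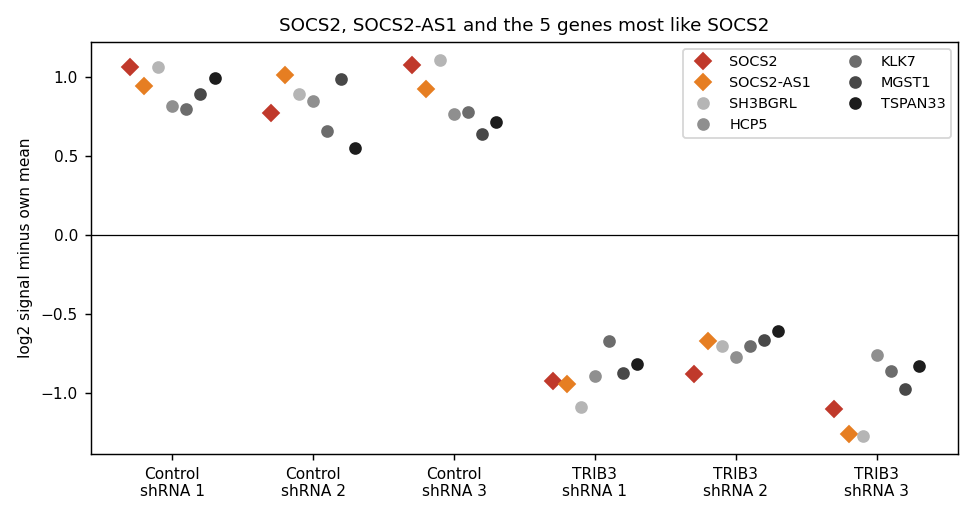
Log2 signal minus each gene's own mean (vertical axis) in the 6 arrays for SOCS2, SOCS2-AS1 (diamonds) and the 5 genes outside the family with the smallest root mean square difference from SOCS2 (circles). All 7 genes lie above 0 in controls and below 0 in the arrays labelled TRIB3-shRNA. Every gene shown except HCP5 is lowest in array 3 of that label.

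Of the 7 relatives of SOCS2, SOCS5 fell and the other 6 did not pass limma's test at an adjusted p of 0.05. That rule called 9.64% of all genes tested, 6.39% as lower and 3.25% as higher. The groups did not overlap for 4 of the 7, of which 3 were higher and 1 lower, against 32.0% of all genes. The median difference of the 7 was 0.21, and that of all genes was 0.04. An unadjusted p under 0.05 was found for 4 of the 7 (57.1%), against 28.8% of all genes. The 95% intervals given below come from limma and are not adjusted for the number of genes.

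CISH is the closest relative of SOCS2 and, like it, a classic target of STAT5. Its promoter is shown because, of the members' windows searched, it alone held the letters that STAT factors prefer, TTCNNNGAA, which read the same on both strands. Capitals mark each match in the 250 bases before the start of the gene, from RefSeq, build GRCh38.p14, minus strand, chr3:50611775-50612024.
CISH: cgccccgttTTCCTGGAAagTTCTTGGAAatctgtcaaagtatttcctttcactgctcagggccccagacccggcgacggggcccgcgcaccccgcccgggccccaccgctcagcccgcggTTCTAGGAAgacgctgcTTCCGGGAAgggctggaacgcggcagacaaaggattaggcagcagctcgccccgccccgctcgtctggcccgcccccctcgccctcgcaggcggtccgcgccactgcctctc
The 4 matches begin 241, 230, 129 and 112 bases before the start and do not overlap. Of 35116 such windows in the RefSeq table, 6.57% held at least 1 match and 5 held at least 4. The promoter table matched 5 of the 9 members, and its windows of SOCS1, SOCS3 (more than 1 window), SOCS4 and SOCS6 held none. Any start of these genes outside that table was not searched. For comparison, the window of SOCS3, a classic target of STAT3, is given for the start farther upstream, on the minus strand at chr17:78360926-78361175.
SOCS3: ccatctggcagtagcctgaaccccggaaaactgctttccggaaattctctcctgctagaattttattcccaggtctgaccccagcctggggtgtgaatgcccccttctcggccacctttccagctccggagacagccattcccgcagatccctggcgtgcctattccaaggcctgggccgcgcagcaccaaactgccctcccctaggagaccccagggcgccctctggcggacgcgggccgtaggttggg
A match is only a run of letters, and no binding was measured.

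CISH did not pass the test. It read 6.17, 6.06 and 6.16 under the TRIB3-shRNA label and 6.30, 6.12 and 6.39 in controls, and the groups overlapped. Its difference was -0.14 (SE 0.13, 95% interval -0.43 to 0.15, limma adjusted p = 0.503).

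SOCS1 and SOCS3, the members that can also block JAK kinases directly, were slightly higher in the arrays labelled TRIB3-shRNA but did not pass the test. SOCS1 read 5.34, 5.13 and 5.15 against 4.76, 5.03 and 4.88 in controls, a difference of 0.31 (95% interval 0.01 to 0.62, adjusted p = 0.157). SOCS3 read 6.26, 6.18 and 5.93 against 5.81, 5.42 and 5.84, a difference of 0.44 (95% interval 0.08 to 0.80, adjusted p = 0.111). For both genes the groups lay apart by only 0.10. SOCS3 had a second, dimmer feature, which differed by 0.30 with an SD of 0.59 in the arrays labelled TRIB3-shRNA, so its groups overlapped. SOCS3 passed with array weights (adjusted p = 0.0371) and in none of its other 17 alternatives.

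SOCS4 and SOCS5, which act on the epidermal growth factor receptor, had the same mean difference, and of the relatives they lay furthest below the controls. SOCS5 read 5.46, 5.26 and 5.95 under the TRIB3-shRNA label and 6.40, 6.49 and 6.12 in controls. It fell by 0.78 on the log2 scale, or 1.72-fold (SE 0.19, limma adjusted p = 0.0396), with 0.17 between the nearest arrays. The call was lost under 5 of 18 alternatives: when blocked on the replicate number (adjusted p = 0.0955) and without array 1 or 2 of either group (adjusted p up to 0.154). SOCS4 read 6.50, 6.78 and 7.33 against 7.82, 7.83 and 7.28, and here the arrays numbered 3 overlapped. Its difference was -0.78 (SE 0.23, 95% interval -1.30 to -0.25, adjusted p = 0.0675), and it passed under 7 of 18 alternatives, among them without both arrays numbered 3 (-1.19, adjusted p = 0.0086).

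SOCS6 and SOCS7, which bind receptor tyrosine kinases and insulin receptor substrates, did not pass the test. SOCS6 read 6.15, 6.54 and 6.93 under the TRIB3-shRNA label and 6.40, 6.36 and 5.99 in controls, and the groups overlapped widely. Its difference was 0.29 (95% interval -0.18 to 0.76, adjusted p = 0.382) and -0.03 without both arrays numbered 3. SOCS7 was the steadiest member: it read 7.67, 7.72 and 7.68 against 7.51, 7.40 and 7.52, a difference of 0.21 (95% interval -0.05 to 0.48, adjusted p = 0.268). The groups of SOCS7 lay apart by 0.15.

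**Figure D3:**
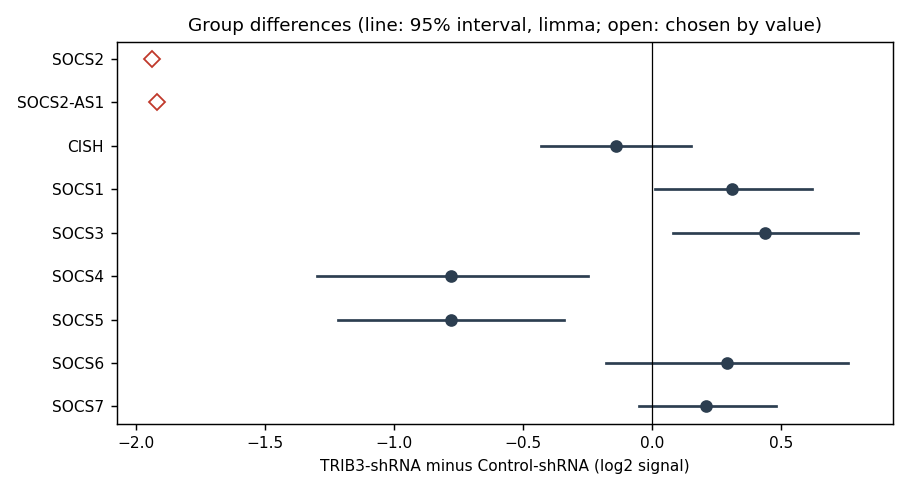
Differences between group means (horizontal axis, log2 signal) for the 9 genes. Filled points with lines are the 7 relatives with limma's unadjusted 95% intervals; open diamonds are SOCS2 (-1.94) and SOCS2-AS1 (-1.92), which were chosen by this value and have no interval. SOCS4 and SOCS5 both lie at -0.78, and the other relatives between -0.14 and 0.44.

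The members differed in how the arrays numbered 3 behaved. For SOCS2 the difference was -2.18 between the arrays numbered 3 and -1.82 between the means of the others. For SOCS2-AS1 these values were -2.19 and -1.79. SOCS5 showed the opposite order, with -0.17 between the arrays numbered 3 and -1.08 between the others, and for SOCS4 the values were 0.04 and -1.19. The pattern of SOCS4 and SOCS5 recurred in JAK1 (-0.38 and -1.18), CUL5 (0.18 and -0.99) and CAND1 (-0.13 and -1.34). It was not particular to this pathway: EEA1 (-0.05 and -1.33) and MRPL42 (-0.06 and -0.97), neighbours of SOCS2, showed it too. Over all genes, deviations from the group means in the arrays numbered 3 correlated at -0.43. Leaving these arrays out raised the genes called from 1435 to 3392. Whether a property of the arrays numbered 3 has a part in these results was not tested.

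**Figure D4:**
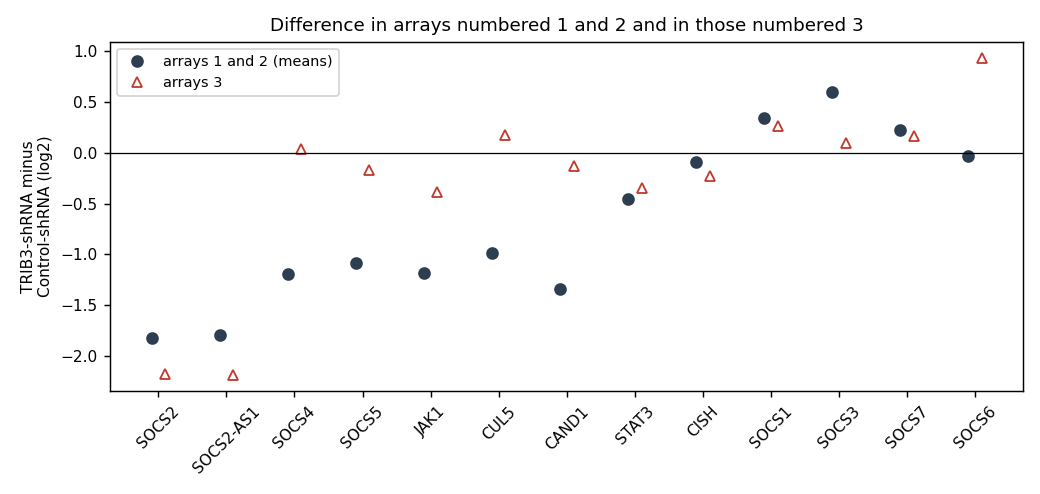
Difference TRIB3-shRNA minus Control-shRNA (vertical axis, log2 signal) between the means of arrays 1 and 2 (filled circles) and between the arrays numbered 3 (open triangles). The values are -1.82 and -2.18 for SOCS2 and -1.79 and -2.19 for SOCS2-AS1. They lie closer together for STAT3, CISH, SOCS1 and SOCS7. For SOCS3, SOCS4, SOCS5, JAK1, CUL5, CAND1 and SOCS6 they lie further apart.

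SOCS2 lies on chromosome 12. Of its 20 nearest measured neighbours, 10 on each side and SOCS2-AS1 left out, 0 passed limma's test and 7 (35.0%) had an unadjusted p under 0.05, against 28.8% of all genes. Their median difference was -0.10, and 6 lay lower without overlap of the groups, a pattern that 15.6% of all genes showed. On the side of SOCS2-AS1 the nearest were MRPL42, a mitochondrial ribosomal protein gene (-0.67, adjusted p = 0.0589), the ubiquitin-conjugating enzyme gene UBE2N (-0.73, adjusted p = 0.0707), and NUDT4 (-0.40, adjusted p = 0.0936). LOC643339 (0.13, adjusted p = 0.506) and the endosome tether gene EEA1 (-0.90, adjusted p = 0.0548) came next. On the other side stood CRADD, an adaptor of cell death signalling (-0.14, adjusted p = 0.563), PLXNC1 (0.02, adjusted p = 0.933), CEP83-DT (-0.50, adjusted p = 0.085), TMCC3 (0.04, adjusted p = 0.86) and KRT19P2 (-0.40, adjusted p = 0.43). Without both arrays numbered 3, 5 of the 20 passed, all lower, at a setting that called 22.8% of all genes, 14.7% as lower and 8.09% as higher. MRPL42, UBE2N and EEA1 had the array pattern of SOCS5: between the arrays numbered 3 they differed by -0.06, 0.00 and -0.05.

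**Figure D5:**
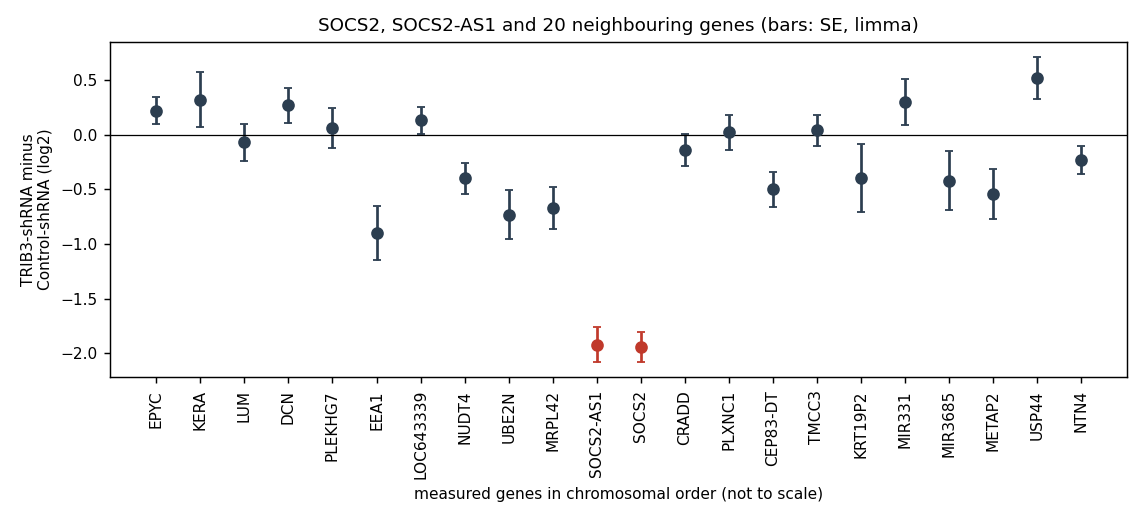
Difference TRIB3-shRNA minus Control-shRNA (vertical axis, log2 signal) with limma's SE for SOCS2-AS1, SOCS2 and 10 measured genes on each side, in chromosomal order and not to scale. SOCS2-AS1 and SOCS2 lie at -1.92 and -1.94, and the neighbours between -0.90 and 0.52.

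The same window around the other members had medians from -0.14 for SOCS5 to 0.17 for SOCS7, and windows of all genes ran from -0.22 (5th percentile) to 0.21 (95th percentile). For SOCS7, 4 of 20 neighbours passed the test, all higher, where 3.25% of all genes passed as higher. SOCS6, on chromosome 18, had 3 such neighbours, also all higher, and a window median of 0.15. For SOCS1 3 of 20 neighbours passed, all lower, where 6.39% of all genes passed as lower. SOCS5 had 1 neighbour called as higher and 2 as lower, and SOCS4 had 1 in each direction. SOCS3 and CISH each had 1, called as higher.

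The pathway around the SOCS proteins was read from 10 lists, with 185 of 296 genes measured. In all 7 passed as higher and 6 as lower, or 7.03% against 9.64% of all genes, with a median of 0.12 against 0.04. Only ASB4 and BCL2 of these 13 kept their call under all alternatives run. Leaving out Control-shRNA replicate 2 kept 2 of the 13 calls, leaving out Control-shRNA replicate 1 kept 3, and leaving out TRIB3-shRNA replicate 1 or 2 kept 4. Those settings called from 199 to 507 of all 14884 genes, against 1435 on the main setting. The pathway total was 35 without TRIB3-shRNA replicate 3, where 2696 of all genes passed. It was 43 without both arrays numbered 3, where 3392 (22.8%) passed. On the main setting 49 of the 185 (26.5%) had an unadjusted p under 0.05, against 28.8% of all genes.

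Among ligands, 0 of 25 measured cytokine and hormone genes passed limma's test, and 4 (16.0%) had an unadjusted p under 0.05, against 28.8% of all genes. Of 18 measured receptors 2 rose and 1 fell (16.7% called, against 9.64% of all genes). IL6R, the receptor chain that binds interleukin-6, read 6.27, 6.23 and 6.31 under the TRIB3-shRNA label and 5.88, 5.77 and 5.67 in controls. It rose by 0.50 (adjusted p = 0.039), a call lost under 7 of 18 alternatives (adjusted p up to 0.141). IL7R rose by 0.63 (adjusted p = 0.021), from a control mean of 3.13, below the 25th percentile of every array (4.26 to 4.36). LEPR, the leptin receptor gene and a reported partner of SOCS3, fell by 0.68 (adjusted p = 0.0379). IL7R failed the test in 5 of 16 alternatives (up to 0.105) and LEPR in 6 of 17 (up to 0.147).

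The receptor genes closest to SOCS2 biology did not pass the test. GHR, the growth hormone receptor gene, read 2.68 to 3.07 under the TRIB3-shRNA label and 2.95 to 3.30 in controls, with a difference of -0.29 (adjusted p = 0.257). PRLR, the prolactin receptor gene, differed by 0.22 (adjusted p = 0.454). All values of both genes lay below the 25th percentile of every array, so they say little about a difference. IGF1R read 6.75, 6.47 and 6.66 against 7.02, 7.07 and 6.95, without overlap, a difference of -0.38 (95% interval -0.67 to -0.09, adjusted p = 0.089). EGFR (0.15, adjusted p = 0.598) and LIFR (0.04, adjusted p = 0.888) did not pass.

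Of 9 measured JAK and STAT genes 1 fell and 0 rose (11.1% called, against 9.64% of all genes). JAK1, the kinase shared by most cytokine receptors, read 7.37, 8.09 and 8.25 under the TRIB3-shRNA label and 8.93, 8.89 and 8.63 in controls. It fell by 0.91 on the log2 scale, or 1.88-fold (SE 0.22, limma adjusted p = 0.0375), with the largest shortfall in array 1. The call was lost under 5 of 18 alternatives (adjusted p up to 0.139), the same settings as for SOCS5. STAT3 stood apart by its small spread: it read 8.37, 8.27 and 8.37 against 8.72, 8.81 and 8.72, a difference of -0.42 (SE 0.12, adjusted p = 0.0568), and passed under 5 of 18 alternatives. STAT5A (0.04, adjusted p = 0.892) and STAT5B (0.10, adjusted p = 0.656), the STATs that growth hormone activates, did not pass, with 95% intervals of -0.28 to 0.35 and -0.20 to 0.40. JAK2 (-0.25, adjusted p = 0.51) and TYK2 (0.31, adjusted p = 0.219) did not pass either. JAK2 passed without TRIB3-shRNA replicate 3 and without both arrays numbered 3 (-0.63). STAT6 and IL6ST were not analysed here.

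Other inhibitors of the pathway did not differ beyond the threshold: 0 of 7 measured genes passed limma's test, and 0 had an unadjusted p under 0.05. BCL6, a repressor that competes with STATs, differed by 0.05 (adjusted p = 0.867).

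Of 9 measured subunits and activators of the SOCS box ubiquitin ligase, 1 fell and 0 rose, with a median of -0.31. The share called was 11.1%, against 9.64% of all genes, and 4 (44.4%) had an unadjusted p under 0.05, against 28.8% of all genes. CAND1, which exchanges the adaptors of cullin ligases, read 7.14, 7.53 and 8.07 under the TRIB3-shRNA label and 8.74, 8.61 and 8.20 in controls. It fell by 0.93 (adjusted p = 0.0438), but failed the test in 5 of 18 alternatives (adjusted p up to 0.157). CUL5, the cullin of the SOCS ligase, differed by -0.60 (95% interval -1.13 to -0.07, adjusted p = 0.133), and its partner RNF7 by 0.10 (adjusted p = 0.611). The neighbours of CUL5 had a window median of -0.27, with 7 of 20 passing as lower, against 6.39% of all genes. Without both arrays numbered 3, 5 of the 9 ligase genes passed, all lower, CUL5 among them (-0.99, adjusted p = 0.0212), where 14.7% of all genes passed as lower.

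Of 27 measured genes for other SOCS box proteins 3 rose and 1 fell (14.8% called, against 9.64% of all genes). An unadjusted p under 0.05 was found for 10 (37.0%), against 28.8% of all genes. ASB4, an ankyrin repeat protein with a SOCS box, read 6.86, 7.10 and 7.65 under the TRIB3-shRNA label and on average 8.90 ± 0.14 (SD, n = 3) in controls. It fell by 1.70 on the log2 scale, or 3.25-fold (SE 0.20, limma adjusted p = 0.00315), the largest change among the pathway genes, and the groups lay 1.09 apart. It lies on chromosome 7, where 7 of its 20 neighbours also passed as lower, against 6.39% of all genes. The window median was -0.12. ASB6 rose by 0.81 (adjusted p = 0.0203), SPSB1, whose protein targets inducible nitric oxide synthase, by 0.68 (adjusted p = 0.0236) and ASB5 by 0.53 (adjusted p = 0.0396). The ASB5 signal lay below the 25th percentile of every array, where sizes are uncertain. ASB6 and SPSB1 each failed the test in 5 of 18 alternatives and ASB5 in 8 of 16.

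Of 22 measured genes of the growth hormone and insulin-like growth factor axis, 1 rose and 0 fell (4.55%, against 9.64% of all genes). That was GRB10, an adaptor that dampens insulin and IGF1 receptor signalling, which read 6.16, 5.87 and 5.89 against 5.25, 5.31 and 5.16. The rise was 0.74 (adjusted p = 0.0141), and it failed the test in 3 of 17 alternatives (adjusted p up to 0.0699).

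Of 20 measured genes whose proteins are reported partners or substrates of SOCS proteins, 3 fell and 0 rose, with a median of -0.12. The share called was 15.0%, against 9.64% of all genes, and 6 (30.0%) had an unadjusted p under 0.05, against 28.8% of all genes. MET, the hepatocyte growth factor receptor gene, read 8.11, 8.61 and 9.04 under the TRIB3-shRNA label and 10.24, 10.24 and 9.80 in controls. It fell by 1.51 on the log2 scale, or 2.84-fold (SE 0.23, limma adjusted p = 0.00877). That call was lost only without Control-shRNA replicate 2 (adjusted p = 0.0535). PTK2, which encodes focal adhesion kinase, fell by 0.68 (adjusted p = 0.0433), but failed the test in 9 of 18 alternatives (adjusted p up to 0.164). The third was LEPR. With the trend on gene span removed, MET was still called at -1.36, while LEPR at -0.55 (adjusted p = 0.054) and PTK2 at -0.57 (adjusted p = 0.0607) were not. On the main setting the differences of MET, LEPR and PTK2 were -1.51, -0.68 and -0.68. The part of gene span in them was not tested.

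Of 29 measured targets of STAT3 and STAT5 other than the SOCS genes, 1 rose and 0 fell (3.45%, against 9.64% of all genes). The list had a median of 0.20, with 6 genes (20.7%) at an unadjusted p under 0.05, against 28.8% of all genes. Without overlap of the groups 8 of the 29 were higher and 0 lower, where 16.4% of all genes were higher and 15.6% lower. BCL2, an inhibitor of cell death, read 6.37, 6.58 and 6.48 under the TRIB3-shRNA label and 5.12, 5.20 and 4.50 in controls, and rose by 1.54 (SE 0.19, limma adjusted p = 0.00365). It lies on chromosome 18, where 4 of its 20 neighbours also rose, against 3.25% of all genes, and the window median was 0.20. PIM1, a kinase gene that STAT5 induces, differed by 0.09 (95% interval -0.21 to 0.40, adjusted p = 0.679). Without both arrays numbered 3, 6 of the 29 passed, all higher, where 22.8% of all genes passed, 8.09% as higher.

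Of 33 measured interferon-stimulated genes, which SOCS1 holds in check, 0 passed limma's test and 8 (24.2%) had an unadjusted p under 0.05, against 28.8% of all genes. Their median was 0.13. Without both arrays numbered 3, 4 passed as higher and 5 as lower, where 22.8% of all genes passed.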

How the data were processed

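Expression of HCT-8 cells was measured on 6 Affymetrix arrays, 3 per group, each sample in the group its title names. Per the submitters' processing notes, the authors made the deposited log2 values with RMA, using version 1.4.1 of Affymetrix Expression Console. That method corrects background, equalises arrays by quantiles and joins probes into a signal. Scanner files were not used here.

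Of 53617 features, 16098 carried 1 gene symbol and 37519 none. Symbols were updated by gene identifier against RefSeq (GRCh38.p14), which also gave gene order and span. For the 779 genes with several features the brightest was kept, leaving 14884 genes. These went into a two-sided limma fit (version 3.58.1, R 4.3.3) with only the group as a term, and p-values were adjusted by Benjamini-Hochberg and read at 0.05. Summaries used Python 3.11.15. The fit was checked on simulated data.

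The family and the gene lists were chosen with earlier results of these data known. Named by rule were the family, a fixed set of core pathway genes, called pathway genes (each where a list had few, otherwise the 3 with the smallest adjusted p in each direction), the 5 measured genes on each side of SOCS2, and the 5 genes most like it. SOCS2 and SOCS2-AS1 got no test. Alternatives dropped each array in turn, blocked on the replicate number, applied quantile normalization, centred arrays on their median or their 75th percentile, kept genes above the 25th percentile or above the median, used an intensity trend or array weights, averaged a gene's features, or tested every feature. Leaving out both arrays numbered 3 and removing the trend with gene span (lowess, span 0.3) were chosen after seeing the data.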

Additional observations from a re-analysis of the deposited data

How the results depend on the processing

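The labels give both groups replicate numbers 1 to 3, but same-numbered arrays did not deviate together (correlations of deviations from group means of -0.20, -0.09 and -0.43), so the numbers were not taken as pairs. With the replicate block 402 genes were called instead of 1435, along with 0 relatives of SOCS2 instead of 1 and 3 pathway genes instead of 13. Array weights gave 4099 genes, 3 relatives, 44 pathway genes and 6 of the 20 neighbours of SOCS2, against 0 neighbours on the main setting. Without both arrays numbered 3 the counts were 3392, 2, 43 and 5. Keeping genes above the 25th percentile gave 1907 genes, 2 relatives, 23 pathway genes and 3 neighbours. Keeping those above the median gave 1920, 2, 25 and 2, and both of these filters tested fewer genes. An intensity trend gave 1945, 2, 23 and 2. Leaving out each array in turn gave 199 to 2696 genes, 0 to 2 relatives, 2 to 35 pathway genes and 0 to 5 neighbours. The other settings stayed within 1.5 times these counts. The higher and lower calls were 484 and 951 on the deposited values and 812 and 766 after centring on the 75th percentile, where the median over all genes was 0.13 instead of 0.04. The cause of these shifts was not tested. The differences of SOCS2 (-2.04 to -1.82) and SOCS2-AS1 (-2.07 to -1.77) moved by less than the larger SD within a group under all 18 alternatives. Signal over background was not available, which limits dim genes.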
